A study of Sus scrofa with 6 samples.

Results

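Genes of phospholipid synthesis, turnover and transfer were examined in skeletal muscle of pigs that carry UCP1 in their fat cells. The set holds 10 genes, of which 9 were found among the 30476 genes of the count table and all 9 were abundant enough to be tested. *ETNPPL* and *STARD7* were chosen because their measured values were strongly lower in the UCP1 KI pigs, so their values are given as a description and without a test. The other 8 genes were listed by their function, with earlier results of these data known, and 7 of them could be tested. The study that reported these samples had shown *AGK* and *PGS1* among its differently expressed lipid genes. *PEMT*, the enzyme that methylates phosphatidylethanolamine to phosphatidylcholine, has no identifier under its symbol in the gene name table, so it was not analysed here.

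The samples were longissimus dorsi, a muscle of the back, from 3 UCP1 KI pigs and 3 WT pigs, all 6 months old, with 1 RNA-seq library each. UCP1 KI pigs are knock-in animals made with CRISPR/Cas9, in which UCP1, a mitochondrial uncoupling protein of brown fat, was placed under adipocyte-specific expression. The question put to these samples is how muscle differs when the genotype acts in fat. Sex, litter and the promoter that drives UCP1 were not given in the sources used here, and the genotype was not checked against the counts because UCP1 has no identifier under its symbol. The labels number the samples as replicates without saying more about the animals, so each p value measures the spread between these 6 samples.

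Most membrane phospholipid of a mammalian cell is phosphatidylcholine or phosphatidylethanolamine. Both are built in the Kennedy pathway, where choline or ethanolamine is phosphorylated, coupled to CTP and joined to diacylglycerol. Phosphatidic acid is the branch point: phosphatases turn it into diacylglycerol for this pathway, and in mitochondria it leads through phosphatidylglycerol to cardiolipin, the lipid of the inner membrane that supports the respiratory chain. Mitochondria make some of their own phosphatidylethanolamine but have to import phosphatidylcholine.

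Values are counts scaled to 1000000 per TMM-corrected library (CPM). Log2 fold changes with their standard errors (SE) compare UCP1 KI with WT in edgeR, so that a negative value is lower in UCP1 KI pigs. Levels were not compared between genes, since CPM is not scaled to transcript length. A gene was called when it passed both limits of the study, which are an unadjusted p under 0.05 (here by the quasi-likelihood test of edgeR) and a log2 fold change of more than 0.5 in either direction. Of the 13402 genes tested, 8.19% were called, 3.84% as higher and 4.34% as lower in UCP1 KI pigs. In 15.3% of the genes tested every pig of one genotype lay above every pig of the other, in 7.59% with UCP1 KI higher and in 7.69% with UCP1 KI lower. With p values adjusted by the Benjamini-Hochberg method across the 13402 genes, as for every edgeR adjusted p given here, edgeR found 0 genes with an adjusted p under 0.05, while 1100 had an unadjusted p under 0.05, and DESeq2 on the same genes found 127 after adjustment over the 13374 to which it gave a p value.

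Library totals ran from 30220951 to 35066624 counts, and the most that a count of 0 can hide, set at 3 counts, equalled 0.0795 to 0.1096 CPM, which covers counting error only. Muscle fibre genes were abundant in every library, with *ACTA1*, skeletal muscle actin, between 30310 and 55970 CPM. WT replicate 2 stood apart with a TMM factor of 0.781 against 0.918 to 1.18 in the other libraries. The sum of 5 fibroblast markers was 198.9 to 367.0 CPM in UCP1 KI pigs and 577.9 to 926.7 CPM in WT pigs, without overlap, and 3 of the 5 (*COL1A1*, *COL3A1* and *LUM*) were called as lower. *COL3A1* alone had a mean of 138.3 CPM in UCP1 KI pigs and 411.9 CPM in WT pigs. *PDGFRA* (log2 fold change -0.08, SE 0.36) and *DCN* (-0.39, SE 0.24) overlapped between the groups and were not called. *COL1A1* was called in all 6 fits that left out a pig and *COL3A1* in 5, not without WT replicate 2 (-1.31), whereas *LUM* was called in 1, the fit without WT replicate 3, and lost its call with library size only (-0.31), with all genes that had any count and with the replicate block (-0.55). The adipocyte marker sum overlapped, at 60.61 to 207.8 CPM against 70.93 to 362.0 CPM, with 0 of 5 tested markers called, all 5 below 0 in log2 fold change (median -1.13) and leptin (*LEP*) at 0 counts in UCP1 KI replicates 2 and 3 and WT replicate 1. *FABP4*, the fatty acid binding protein of adipocytes, was called as lower with the replicate block (-0.92) and when WT replicate 1 was left out (-1.65), and was at -0.08 when WT replicate 2 was. *ADIPOQ* was also called as lower without WT replicate 1 (-1.77), and *LPL* without UCP1 KI replicate 2 (-1.82). Endothelial markers (279.7 to 465.3 against 250.3 to 435.6 CPM, *TEK* higher, 1 of 4 called), leukocyte markers (13.75 to 39.55 against 13.92 to 23.88 CPM, *CD3E* higher, 1 of 4 called) and muscle fibre markers (49330 to 85100 against 68780 to 95530 CPM, 0 of 4 called) overlapped as well. The call of *CD3E* rested on overlapping groups, was lost with the replicate block (1.47) and held in 2 of the 6 fits that left out a pig, with 0.95 when UCP1 KI replicate 2 was omitted. The sum of 9 glucocorticoid and fasting response genes overlapped at 1905 to 4334 against 1523 to 2352 CPM, with *TRIM63* and *FBXO32* called as higher and *SGK1* as lower. UCP1 KI replicate 3 held the highest values of *TRIM63* (1734 CPM against 369.0 and 371.1 CPM in the other UCP1 KI pigs) and *FBXO32* (1058 CPM against 214.9 and 329.6 CPM), and leaving it out gave 0.46 and 0.62, neither called. Each of these genes was called in 3 of the 6 fits that left out a pig, lost also when WT replicate 1 or WT replicate 2 was omitted, and *SGK1* in 2, with -0.55 when WT replicate 1 was omitted. With library size only *SGK1* lost its call (-0.96), and *KLF9* (1.11) and *ZBTB16* (0.97), both targets of the glucocorticoid receptor, were called as higher. *ZBTB16*, whose groups did not overlap, was also called as higher with all genes that had any count (0.73) and without UCP1 KI replicate 3 (0.89). The part that these cell types and responses have in the values that follow was not tested. In bulk muscle, fewer cells of a type and less RNA per cell cannot be told apart.

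*ETNPPL* (ENSSSCG00000009144, RefSeq position 8:113363047-113384783 in Sscrofa11.1) encodes the phospho-lyase that splits phosphoethanolamine into acetaldehyde, ammonia and phosphate, and so removes an intermediate from which the ethanolamine branch of the Kennedy pathway builds phosphatidylethanolamine. It was measured at 4.93, 3.91 and 2.97 CPM in WT replicates 1 to 3 and at 0.485, 0.252 and 0.742 CPM in UCP1 KI replicates 1 to 3. The lowest WT pig was thus above the highest UCP1 KI pig, and both groups were above the limit of the depth in every library, the smallest count being 9 in UCP1 KI replicate 2. The mean of WT pigs was 7.99 times that of UCP1 KI pigs, and the fitted log2 fold change was -2.99 (SE 0.49). With each pig left out in turn it ranged from -3.41 to -2.69, and it was -2.75 with library size only. Because the gene was selected on this contrast, no p value is given.

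*PHYKPL*, which encodes the related phospho-lyase for phosphohydroxylysine, an amino acid derived from collagen, did not pass the limits. Its level was 2.26, 1.57 and 1.502 CPM in WT pigs and 2.13, 1.32 and 1.78 CPM in UCP1 KI pigs. The groups overlapped, and the log2 fold change was -0.03 (SE 0.38, edgeR adjusted p = 0.984) and 0.17 with library size only. *SGPL1*, the sphingosine phosphate lyase that releases phosphoethanolamine from sphingolipids, was at 4.19 to 5.73 CPM in WT pigs and 4.63 to 6.52 CPM in UCP1 KI pigs, with a log2 fold change of 0.15 (SE 0.28).

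*STARD7* (ENSSSCG00000008132, RefSeq position 3:46992708-47017668 in Sscrofa11.1) encodes a START domain protein that carries phosphatidylcholine to mitochondria. Its values were 27.98, 25.45 and 30.17 CPM in WT replicates 1 to 3 against 9.28, 4.68 and 4.48 CPM in UCP1 KI replicates 1 to 3. The WT pigs lay close together and far above the UCP1 KI pigs, among which replicate 1 was the highest. On average WT pigs were at 4.53 times the level of UCP1 KI pigs, and the fitted log2 fold change was -2.18 (SE 0.34). It ranged from -2.60 to -1.99 with each pig left out, the largest without UCP1 KI replicate 1, and was -1.98 with library size only. Like *ETNPPL*, the gene was selected on this contrast and has no p value.

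One limit belongs to *STARD7*. In RefSeq the span of *TMEM127*, a neighbouring membrane protein gene, covers 24952 of the 24961 bases of *STARD7*, and *TMEM127* was found under no identifier in the counts. Strand use and the counting program were not given in the sources used here, so any reads of *TMEM127* counted here cannot be told apart from those of *STARD7*. Of the nearest genes with counts on either side, neither passed the limits. *DUSP2*, a phosphatase of MAP kinases, had a log2 fold change of 0.05 (SE 0.90). *CIAO1*, of iron-sulphur protein assembly, was at 18.7 to 26.3 CPM in WT pigs and 27.3 to 43.9 CPM in UCP1 KI pigs, a log2 fold change of 0.58 (SE 0.27) in the direction opposite to *STARD7*.

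*STARD10*, a phospholipid transfer protein with the same kind of domain, was at 11.7, 18.4 and 34.6 CPM in WT pigs and 24.3, 14.1 and 17.6 CPM in UCP1 KI pigs. WT replicates 1 and 3 held the lowest and the highest value, so the groups overlapped throughout, with a log2 fold change of -0.21 (SE 0.42, edgeR adjusted p = 0.905) and 0.04 with library size only. *PCTP*, the phosphatidylcholine transfer protein, has no identifier under its symbol and was not analysed here.

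**Figure D1:**
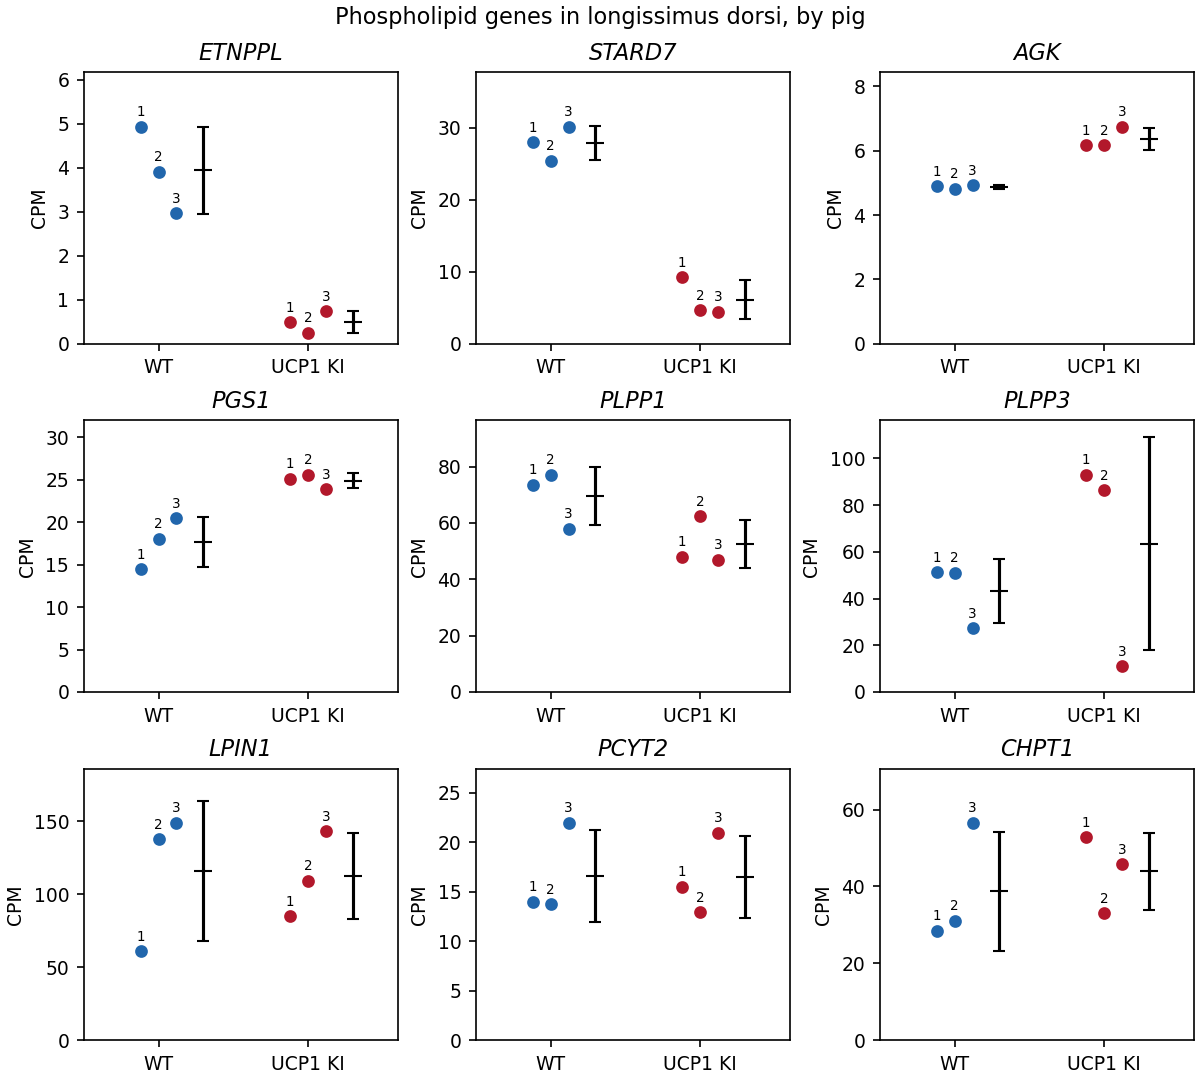
CPM (vertical axis, linear and starting at 0) of the 9 phospholipid genes found, in WT pigs (blue) and UCP1 KI pigs (red), with each pig's replicate number and, beside the points, the mean and SD of 3 pigs. *ETNPPL* and *STARD7* are far lower in all 3 UCP1 KI pigs, *AGK* and *PGS1* are higher in all 3, and the genotypes overlap in the other 5 genes, with UCP1 KI replicate 3 far below the others for *PLPP3*.

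Of the other 7 tested genes of the set, 0 passed both limits, beside the 8.19% of all genes tested. Their log2 fold changes ran from -0.40 to 0.55 with a median of 0.18, 4 above 0 and 3 below, where the median of all genes tested was -0.02. With library size only 6 were above 0 and 1 below, with a median of 0.42, as *LPIN1* and *PCYT2* turned sign, and the median of all genes tested was 0.24 at this setting. In 2 of the 7 (28.6%) the genotypes did not overlap, both with UCP1 KI higher, beside 15.3% of all genes in either direction and 7.59% in this direction. These were *AGK* and *PGS1*, which the study had already shown as differently expressed in these samples, so their share is not free of this contrast. Of the 8 other tested genes of phosphatidylglycerol and cardiolipin, 0 were without overlap.

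*AGK*, the mitochondrial acylglycerol kinase that makes phosphatidic and lysophosphatidic acid, was at 4.91, 4.82 and 4.94 CPM in WT pigs. In UCP1 KI pigs it was at 6.18, 6.17 and 6.75 CPM. Each group was tight and every UCP1 KI pig was above every WT pig. At a log2 fold change of 0.38 (SE 0.24, edgeR adjusted p = 0.693) it did not pass the limits, and the change ranged from 0.34 to 0.41 with each pig left out. *DGKE*, a lipid kinase that makes phosphatidic acid from diacylglycerol, spread widely, from 2.16 to 13.9 CPM in WT pigs and from 4.48 to 11.4 CPM in UCP1 KI pigs, with a log2 difference of -0.25 (SE 0.64, edgeR adjusted p = 0.925).

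*PGS1* encodes the phosphatidylglycerophosphate synthase that commits lipid to phosphatidylglycerol and cardiolipin. Its values were 14.5, 18.1 and 20.5 CPM in WT pigs and 25.1, 25.6 and 23.9 CPM in UCP1 KI pigs. The UCP1 KI pigs lay close together above the 3 WT pigs, which were more spread. The log2 fold change of 0.49 (SE 0.22) missed both limits narrowly, with an unadjusted p = 0.0608 and an adjusted p = 0.617 from edgeR. It passed both limits with library size only (0.76) and without WT replicate 3 (0.61), and was 0.36 at its lowest with another pig left out. In RefSeq it shares 787 bases with *DNAH17*, a dynein gene whose log2 fold change was -0.55 (SE 0.41). *CRLS1*, the cardiolipin synthase that uses the product of this branch, was at 14.0, 8.47 and 11.8 CPM in WT pigs and 12.5, 12.9 and 8.34 CPM in UCP1 KI pigs. Its groups overlapped, with a log2 difference of -0.02 (SE 0.30, edgeR adjusted p = 0.984) and 0.18 with library size only.

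Among the phosphatases, *PLPP1* and *PLPP3* encode cell surface enzymes that remove phosphate from phosphatidic acid, lysophosphatidic acid and sphingosine phosphate. *PLPP1* was at 73.5, 77.1 and 57.9 CPM in WT pigs and 48.1, 62.4 and 47.0 CPM in UCP1 KI pigs. UCP1 KI replicate 2 was above WT replicate 3, so the groups overlapped, and the log2 fold change was -0.40 (SE 0.24, edgeR adjusted p = 0.677). The change reached -0.56 at most with a pig left out and was -0.14 with library size only. In RefSeq the span of *SLC38A9*, an amino acid transporter gene of the lysosome, shares 101950 bases with *PLPP1*. *SLC38A9* has counts of its own and a log2 fold change of 0.56 (SE 0.36). *SKIV2L2*, which shares 1142 bases with *PLPP1*, was not found under this symbol in the counts.

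*PLPP3* was at 51.3, 51.1 and 27.3 CPM in WT pigs and 93.0, 86.4 and 11.0 CPM in UCP1 KI pigs. UCP1 KI replicates 1 and 2 were above all WT pigs, whereas replicate 3 was below all of them, and the highest UCP1 KI value was 8.44 times the lowest. The log2 fold change of 0.55 (SE 0.68) did not pass the p limit (edgeR adjusted p = 0.841). Without UCP1 KI replicate 3 it was 1.05 and passed both limits, and without other pigs it was 0.18 at its lowest. *PLPP3* is known to be strongly expressed in endothelial cells, and the endothelial marker sum was lowest in WT replicate 3 (250.3 CPM) and UCP1 KI replicate 3 (279.7 CPM), the pigs with the least *PLPP3*. *PECAM1*, which made up most of the sum, *CDH5* and *EMCN* were each lowest in these pigs, but *TEK* was not, at 46.12 CPM in UCP1 KI replicate 3, the second highest of the 6 pigs. The part of endothelial cells in this spread was not tested. *PLPP2*, the third enzyme of this group, had few counts, at 0.276, 0.402 and 0.300 CPM in WT pigs and 0.129, 0.0561 and 0.0530 CPM in UCP1 KI pigs, and was not tested in the main fit. Every UCP1 KI pig was below every WT pig, and the fit of all genes with any count gave -1.98, not called. A pair of its UCP1 KI libraries were under 3 counts, so the size of the difference is uncertain at this depth.

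*LPIN1* encodes lipin, the phosphatidate phosphatase of muscle that makes diacylglycerol and also acts as a transcriptional coactivator. Its values were 61.0, 137.8 and 148.8 CPM in WT pigs and 84.8, 109.2 and 143.2 CPM in UCP1 KI pigs. The UCP1 KI pigs lay within the range of the WT pigs. Its log2 fold change was -0.04 (SE 0.38, edgeR adjusted p = 0.978), it turned to 0.29 with library size only, and it ranged from -0.36 to 0.18 with a pig left out. In RefSeq a noncoding RNA gene, *LOC110260056*, shares 4806 bases with *LPIN1* and was not found under this symbol in the counts. *LPIN2* was at 6.53, 4.71 and 7.34 CPM in WT pigs and 14.9, 9.87 and 4.29 CPM in UCP1 KI pigs, with a log2 fold change of 0.64 (SE 0.45, edgeR adjusted p = 0.715). *LPIN3* was at 1.47 to 2.18 CPM in WT pigs and 1.97 to 3.68 CPM in UCP1 KI pigs, with a log2 difference of 0.54 (SE 0.39, edgeR adjusted p = 0.725). Both overlapped and neither passed the limits, although *LPIN2* did so without UCP1 KI replicate 3, its lowest pig.

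In the Kennedy pathway, *PCYT2* encodes the enzyme that couples phosphoethanolamine to CTP and sets the pace of the ethanolamine branch, the same substrate that the *ETNPPL* enzyme breaks down. It was at 14.0, 13.8 and 22.0 CPM in WT pigs and 15.5, 12.9 and 21.0 CPM in UCP1 KI pigs. Replicate 3 was the highest of each group, and the groups overlapped almost fully. For *PCYT2* the log2 fold change was -0.01 (SE 0.30, edgeR adjusted p = 0.994), ranged from -0.22 to 0.25 with a pig left out, and was 0.25 with library size only and 0.01 when all genes with any count were fitted. *PCYT1A*, its counterpart in the choline branch, was at 36.2 to 48.4 CPM in WT pigs and 38.1 to 48.3 CPM in UCP1 KI pigs, with a log2 difference of 0.04 (SE 0.23, edgeR adjusted p = 0.968).

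*CHPT1*, the choline phosphotransferase of the last step to phosphatidylcholine, was at 28.5, 31.0 and 56.5 CPM in WT pigs and 52.9, 33.1 and 45.7 CPM in UCP1 KI pigs. WT replicate 3 was the highest pig of all and the other WT pigs were the lowest. For *CHPT1* the log2 fold change was 0.18 (SE 0.33, edgeR adjusted p = 0.895), and it ranged from 0.00 to 0.56 with a pig left out. *CEPT1*, which joins either choline or ethanolamine to diacylglycerol, was at 7.002 to 9.911 CPM in WT pigs and 7.73 to 9.51 CPM in UCP1 KI pigs, with a log2 difference of 0.10 (SE 0.25, edgeR adjusted p = 0.923). *PISD*, the mitochondrial decarboxylase that makes phosphatidylethanolamine from phosphatidylserine, was at 9.896, 4.602 and 10.21 CPM in WT pigs and 13.5, 12.5 and 9.83 CPM in UCP1 KI pigs. It overlapped between the groups and had a log2 fold change of 0.54 (SE 0.35, edgeR adjusted p = 0.701).

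**Figure D2:**
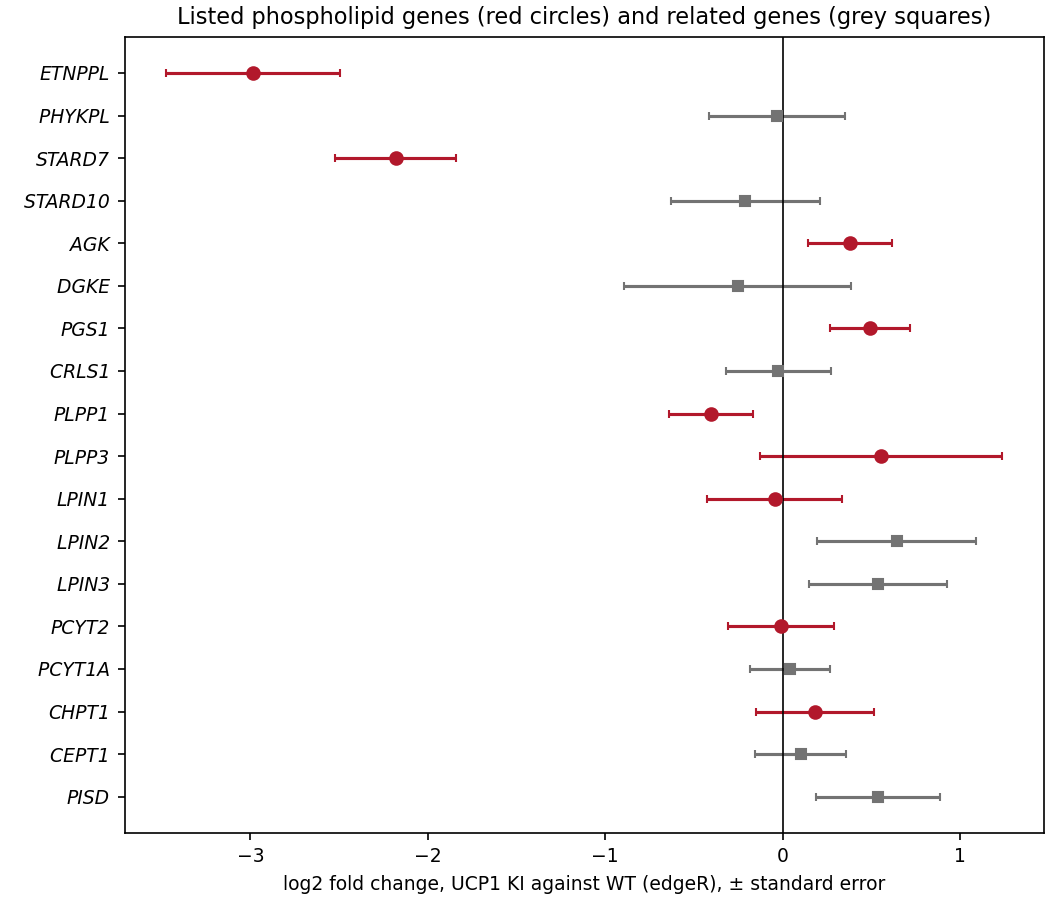
Log2 fold change of UCP1 KI against WT from edgeR (horizontal axis) with its standard error, for the listed phospholipid genes (red circles) and for a related gene of each where one was tested (grey squares). *ETNPPL* at -2.99 and *STARD7* at -2.18, both chosen on these values, stand far to the left, while the other genes lie between -0.40 and 0.64.

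Another 96 genes of phospholipid metabolism were listed by role, of which 84 were found and 78 tested. Their log2 fold changes were above 0 in 39 and below in 39, with a median of -0.00. This split moved to 30 above and 48 below without WT replicate 2 and to 47 above and 31 below without WT replicate 1, and with library size only, which moved the median of all genes tested by 0.25, it was 52 above and 26 below. Both limits were passed by 4 of the 78 (5.13%), 1 higher and 3 lower, beside 8.19% of all genes tested, 3.84% higher and 4.34% lower. The groups did not overlap in 7 of them (8.97%), 4 higher and 3 lower, beside 15.3% of all genes. With library size only the same limits were passed by 5 higher and 2 lower genes of the 78, beside 6.93% higher and 1.46% lower of all genes tested at that setting.

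*FAR1*, the reductase that makes the fatty alcohols of ether phospholipids in peroxisomes, fell in UCP1 KI pigs. It was at 24.6, 26.8 and 26.5 CPM in WT pigs and 15.2, 9.59 and 10.4 CPM in UCP1 KI pigs. The groups lay apart, and UCP1 KI replicate 1 was the nearest to the WT pigs. Its change of -1.15 on the log2 scale (SE 0.26, unadjusted p = 0.0022 and edgeR adjusted p = 0.481, DESeq2 adjusted p = 0.0221) passed both limits in all 6 fits that left out a pig, between -1.38 and -1.03. The other 4 tested ether lipid genes had log2 fold changes above 0, beside 48.7% of all genes tested, and did not pass. Among them was *PEDS1*, the desaturase that makes plasmalogens, at 18.9 to 21.1 CPM in WT pigs and 22.2 to 25.4 CPM in UCP1 KI pigs with no overlap (log2 fold change 0.28, SE 0.20). *GNPAT* turned to -0.18 at its lowest with a pig left out. *TMEM86A* (0.93, SE 0.44) was called with library size only (1.21) and without UCP1 KI replicate 1.

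*VPS13D*, a bridge-like protein that moves lipids between organelles including mitochondria, rose in UCP1 KI pigs. Its values were 12.3, 12.3 and 12.2 CPM in WT pigs against 25.0, 40.6 and 14.7 CPM in UCP1 KI pigs. WT pigs were almost identical, and UCP1 KI pigs were all above them but spread widely. The log2 fold change of 1.13 (SE 0.37, unadjusted p = 0.0162 and edgeR adjusted p = 0.583) dropped to 0.69 and no longer passed the p limit without UCP1 KI replicate 2.

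*PRELID1*, which carries phosphatidic acid across the mitochondrial intermembrane space, was at 34.9, 40.4 and 12.8 CPM in WT pigs and 16.2, 15.1 and 11.2 CPM in UCP1 KI pigs. It passed both limits as lower (log2 fold change -1.05, SE 0.42, unadjusted p = 0.0389 and edgeR adjusted p = 0.603) although WT replicate 3 lay among the UCP1 KI pigs. It passed in 1 of the 6 fits that left out a pig, the one without WT replicate 3, and not with library size only (-0.80). *DGKG*, a diacylglycerol kinase, was at 0.965, 2.48 and 0.334 CPM in WT pigs and 0.550, 0.168 and 0.185 CPM in UCP1 KI pigs. It also passed as lower with overlapping groups (log2 fold change -2.06, SE 0.85, unadjusted p = 0.0424 and edgeR adjusted p = 0.603). WT replicate 2 held the highest value, and without it the change was -1.12 and did not pass. Of the 6 fits that left out a pig, *DGKG* passed in 2, those that omitted UCP1 KI replicate 1 or WT replicate 3, and it did not pass with the replicate block (-1.79).

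By role, the 7 tested genes of phosphatidic acid synthesis were all above 0 in log2 fold change, from 0.15 for *AGPAT1* to 0.49 for *AGPAT5*, beside 48.7% of all genes tested, but 0 of them passed the limits. *GPAM* turned to -0.36 without UCP1 KI replicate 3 and to -0.05 when WT replicate 2 was omitted, and *GPAT3* to -0.34 at its lowest, without WT replicate 3, so not all were above 0 with a pig left out. Of 7 diacylglycerol kinase genes, which make phosphatidic acid from diacylglycerol instead, 6 were below 0 (5 with library size only), beside 51.3% of all genes tested, and *DGKG* passed. At their highest with a pig left out, *DGKA* turned to 0.16 and *DGKE* to 0.26. *DGKD*, the kinase above 0 (1.17, SE 0.54, edgeR adjusted p = 0.620), passed with library size only, with DESeq2, with all genes that had any count, and with either UCP1 KI replicate 3 or WT replicate 3 left out. The 8 tested genes of phosphatidylglycerol and cardiolipin synthesis and remodelling other than *PGS1* were split 4 above and 4 below 0 (7 and 1 with library size only), with 0 called, among them *TAFAZZIN*, the cardiolipin acyl remodelling enzyme, at 0.20 (SE 0.28). Without WT replicate 1, *CDS2*, a synthase of CDP-diacylglycerol, was called as higher (0.58), as were *CDIPT*, of phosphatidylinositol synthesis, and the lipid transfer gene *VPS13C*. The 7 tested Kennedy pathway genes beyond *PCYT2* and *CHPT1* were split 3 above and 4 below (5 and 2 with library size only), also with 0 called. *ETNK1*, the ethanolamine kinase that makes phosphoethanolamine, was at 19.3 to 26.7 CPM in WT pigs and 17.2 to 19.6 CPM in UCP1 KI pigs, with a log2 difference of -0.32 (SE 0.23, edgeR adjusted p = 0.719).

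Of the 15 tested phospholipases and lysophospholipases 0 passed, with 6 above and 9 below 0 (8 and 7 with library size only). *PLD3* was called as lower without UCP1 KI replicate 2, *PLD1* as lower and *ABHD3* as higher without UCP1 KI replicate 3, and *LYPLA2* was called as higher with library size only and when WT replicate 3 was omitted. In 3 of the 15 (20%) the groups did not overlap, near the 15.3% of all genes tested. *LYPLA2*, a lysophospholipase and depalmitoylating enzyme, was higher in each UCP1 KI pig (log2 fold change 0.55, SE 0.25, edgeR adjusted p = 0.617), whereas *PLD1*, a phospholipase D, and *GDPD5*, a glycerophosphodiesterase, were lower in each (log2 fold changes -0.68 and -0.62, standard errors 0.35 and 0.34). Of 7 genes of acyl remodelling 0 passed, and *MBOAT7*, which puts arachidonate into phosphatidylinositol, did not overlap, at 9.92 ± 0.562 CPM (SD, n = 3) in WT pigs and 14.1 ± 2.05 CPM (SD, n = 3) in UCP1 KI pigs, a log2 difference of 0.51 with a standard error of 0.23.

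**Figure D3:**
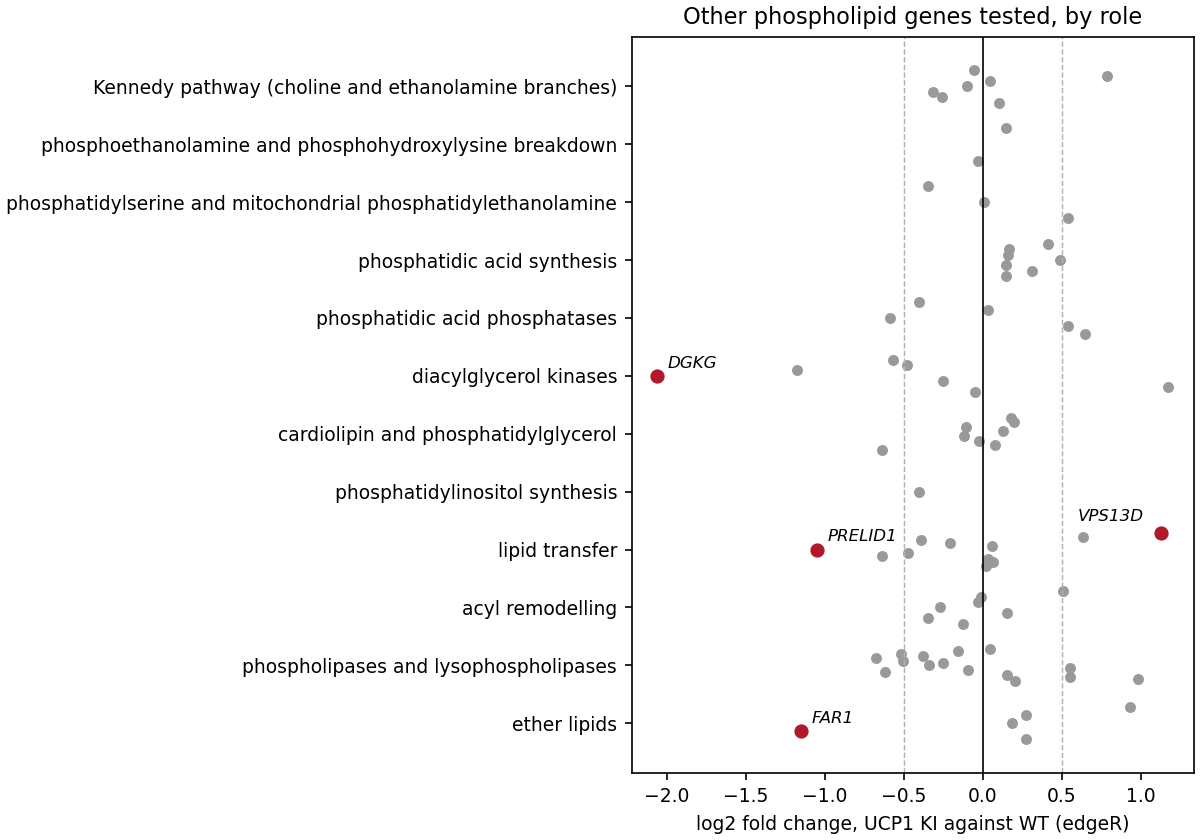
Log2 fold change of UCP1 KI against WT from edgeR (horizontal axis) for the 78 other phospholipid genes tested, in rows by role; red points passed both limits and dashed lines mark the fold change limit of 0.5 in either direction. The genes lie on both sides of 0, with *FAR1*, *PRELID1* and *DGKG* called as lower and *VPS13D* as higher.

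The genes whose pattern over the 6 pigs was nearest to *ETNPPL*, by the root mean square difference of centred log2(CPM + 1) values, were *CES3*, a carboxylesterase (0.26), *GEM*, a small GTP-binding protein (0.29), and *RIMBP2*, a synaptic protein (0.29). *CES3* was at 3.25, 2.30 and 2.60 CPM in WT pigs and 0.550, 0.281 and 0.795 CPM in UCP1 KI pigs, the same order of UCP1 KI pigs as *ETNPPL*. Nearest to *STARD7* were *COL1A1*, a chain of type I collagen (0.39), *HYCC2* (0.40) and *ETNPPL* itself (0.43). *COL1A1* was at 115.0, 179.6 and 100.9 CPM in WT pigs and 44.0, 29.4 and 35.8 CPM in UCP1 KI pigs. These genes were taken from the same contrast as *ETNPPL* and *STARD7*, and their likeness is a description.

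**Figure D4:**
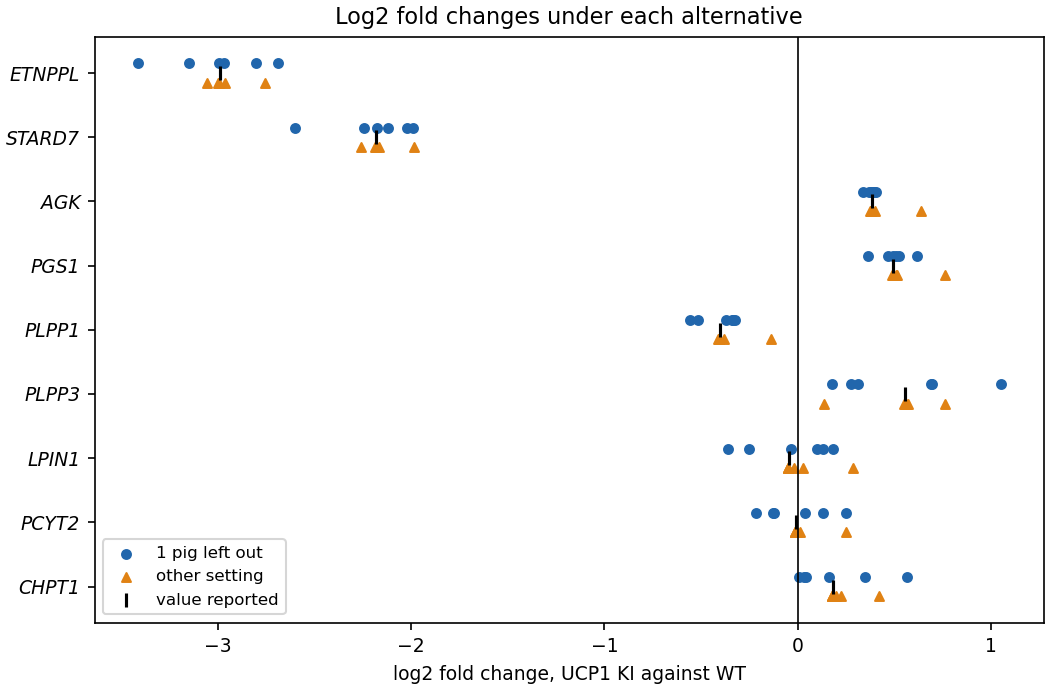
Log2 fold change of UCP1 KI against WT (horizontal axis) for the 9 phospholipid genes as reported (black bar), with each pig left out (blue circles) and under the other settings of normalization, filter, tool and block (orange triangles). *ETNPPL* stays between -3.41 and -2.69 and *STARD7* between -2.60 and -1.98, while *LPIN1* and *PCYT2* fall on both sides of 0.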

How the data were processed

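Longissimus dorsi RNA-seq from 3 UCP1 KI and 3 WT pigs was analysed, with samples grouped by the genotype in the labels. The authors deposited raw read counts per Ensembl pig gene, without normalization, and 0 columns were left unused. The submitters' processing notes name FastQC 0.11.2, Trimmomatic 0.36, HISAT2 2.0, bedtools 2.26.0, StringTie 1.3.3b, DESeq2 1.12.4 and the build Sscrofa11.1. The counting program, its strand setting and the annotation release were not given in the sources used here, and if overlapping genes were not split by strand, their counts can mix.

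The counts were tested with edgeR 4.0.16 in R 4.3.3 (filterByExpr, TMM factors, quasi-likelihood F test, two-sided, condition as the only term), which kept 13402 of 20062 genes with any count. p values were adjusted over all genes tested. SD is over the 3 pigs of a group. Symbols came from an Ensembl pig gene name table that paired 14864 identifiers, and positions and overlaps from RefSeq on Sscrofa11.1. No library was a copy of another: between any 2, at most 0.91% of genes with a mean over 10 counts had the same count. The procedure was tested on simulated data.

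The phospholipid genes, the lists and the related genes were chosen with earlier results of these data known. Named were the 10 genes with their related genes, the called genes of the wider list, the 3 genes nearest in pattern to *ETNPPL* and to *STARD7*, and cell type markers. *SGPL1*, *ETNK1*, *DGKA*, *DGKD*, *AGPAT1*, *AGPAT5*, *TAFAZZIN*, *PEDS1*, *GNPAT*, *GPAM*, *GPAT3*, *LYPLA2*, *PLD1*, *PLD3*, *GDPD5*, *ABHD3*, *CDS2*, *CDIPT*, *VPS13A*, *VPS13C*, *TMEM86A*, *PLPP4*, *MBOAT7* and the overlapping or neighbouring genes were named after their values were seen. Alternatives were library size only, median-of-ratios factors, DESeq2 1.42.0, all genes with any count, a minimum of 10 counts in each pig, no fold change limit, the replicate number of the labels as a block, and each pig left out.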

Additional observations from a re-analysis of the deposited data

How the results depend on the processing

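With 3 pigs a group, single pigs moved several calls. *PLPP2* had too few counts to be tested in the main fit, and with all genes with any count it was at -1.98 and not called. *ETNPPL* and *STARD7* were lower under each alternative that could be fitted, 11 and 12 of them, since at least 10 counts in every pig leaves out *ETNPPL*. Both were selected as lower on these same counts, so their direction here is a description and no support. Of the 9 genes found of the set, the log2 fold changes that turned sign were those of *LPIN1*, at 0.29 with library size only, 0.027 with the replicate block and 0.13, 0.10 and 0.18 without UCP1 KI replicate 1, WT replicate 2 and WT replicate 3, and of *PCYT2*, at 0.25 with library size only, 0.010 with all genes with any count and 0.04, 0.13 and 0.25 without UCP1 KI replicate 1, UCP1 KI replicate 2 and WT replicate 3. With a pig left out they ranged from -0.36 to 0.18 for *LPIN1* and from -0.22 to 0.25 for *PCYT2*. The cause was not tested.

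Of the other 7 tested genes of the set, 1 passed both limits with library size only (*PGS1*) and 0 to 1 with a pig left out (*PLPP3* without UCP1 KI replicate 3, *PGS1* without WT replicate 3), in place of 0. Of the 78 other phospholipid genes, 5 were higher with library size only (*DGKD*, *LYPLA2*, *MBOAT7*, *TMEM86A* and *VPS13D*), 2 with DESeq2 and 2 with all genes with any count (*DGKD* and *VPS13D* in both), and 0 to 4 with a pig left out, the lowest without UCP1 KI replicate 2, in place of 1. Lower genes numbered 1 to 3 with a pig left out, with *FAR1* alone without WT replicate 1 or WT replicate 2, in place of 3, and *PLD3* (without UCP1 KI replicate 2) or *PLD1* and *VPS13A* (without UCP1 KI replicate 3) among them in other fits. Of the 84 found, 4 were lower with all genes with any count, *PLPP4* added, which is not among the 78 and had counts of 28 in WT replicate 1, 2 in WT replicate 2 and 0 in the other pigs.

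The replicate numbers were not taken to pair the pigs, since the deviations of same-numbered pigs from their group means correlated at 0.00, 0.09 and 0.28 and not every pig correlated best with its own number. With the replicate block, 0 of the 7 genes passed, and 1 higher and 2 lower of the other 78.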
